A study of Rattus norvegicus with 34 samples.

Results

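The subject of these measurements is the set of 8 rat genes Fabp1 to Fabp7 and Cd36, the fatty acid binding proteins of the classical series and the fatty acid translocase. They were chosen by gene symbol, through the probe sets of the array annotated to each symbol, out of 14217 named genes. Each of the 8 genes had 1 probe set annotated to it alone, and a further probe set was annotated to both Cd36 and Cd36l1. The 34 samples, 1 array each, fall into 3 sample types. NRK-52E, an established epithelial line from rat kidney that the labels give as Osborne-Mendel in genotype and as proximal tubule cells, was cultured to confluence and labelled as treated with monuron or with 0.1% DMSO alone for 6, 24 or 72 h, with 3 arrays for each treatment and time. Kidney and liver came from male Wistar-derived rats aged 7 to 9 weeks that weighed 190 to 240 g. In each organ 4 arrays were from rats given monuron, a phenylurea herbicide, in corn oil (5 ml/kg), with 40 mg/kg as the starting dose and 400 mg/kg daily on days 2 and 3, and 4 were from rats given corn oil alone. Per the labels' protocols the animals were killed 72 h past the final dose, while the series title gives 72 h as the exposure. The design text counts 8 rats in all, and the labels do not say which kidney and liver arrays came from 1 animal. For the cells, the protocol names chlorothalonil at 1.1 µM where the sample labels say monuron, so which compound the cells received is in doubt, and "monuron" for the cells below means the label. The replicates are labelled biological.

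Fatty acid binding proteins are small cytosolic carriers of a common barrel fold that hold long-chain fatty acids, bile acids or retinoids and pass them to membranes, mitochondria or the nucleus. Each is known for a tissue: Fabp1 for liver, Fabp2 for intestine, Fabp3 for heart and muscle, Fabp4 for adipocytes, Fabp5 for skin and macrophages, Fabp6 for ileum and Fabp7 for brain. Cd36 is a membrane glycoprotein of the scavenger receptor family that takes up long-chain fatty acids in muscle, fat, macrophages and capillary endothelium. Several of these genes are known targets of the PPAR nuclear receptors, which bind fatty acids as ligands.

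Expression is given as log2 values per probe set. The median of all probe sets of an array lay between 3.66 and 4.18, and a probe set below the median of its own array is treated here as not above background. Values of different probe sets are not set against each other, since probes differ in brightness. Arrays of a group correlated at 0.987 to 0.999 in the cells, 0.993 to 0.996 in kidney and 0.992 to 0.996 in liver over all probe sets. The organs carried their defining markers. All 10 hepatocyte markers, such as Alb, were above the array median on every liver array, and all 10 proximal tubule markers, such as Slc34a1, on every kidney array. In NRK-52E cells 1 of the 10 proximal tubule markers was above the array median, and Slc34a1, the phosphate carrier of that segment, was at 1.92 to 2.00 against 15.28 to 15.58 in kidney. The label of proximal tubule cells is thus not borne out by these markers.

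The clearest feature of the set was its distribution over the sample types. Fabp1, Fabp2 and Fabp7 were liver transcripts here, Fabp3 was high in kidney and close to the array median in liver, Fabp4, Fabp5 and Cd36 were above it on all arrays of both organs, and Fabp6 was below the array median on all 34 arrays. In the NRK-52E cells all 8 genes were below the median on all 18 arrays.

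**Figure D1:**
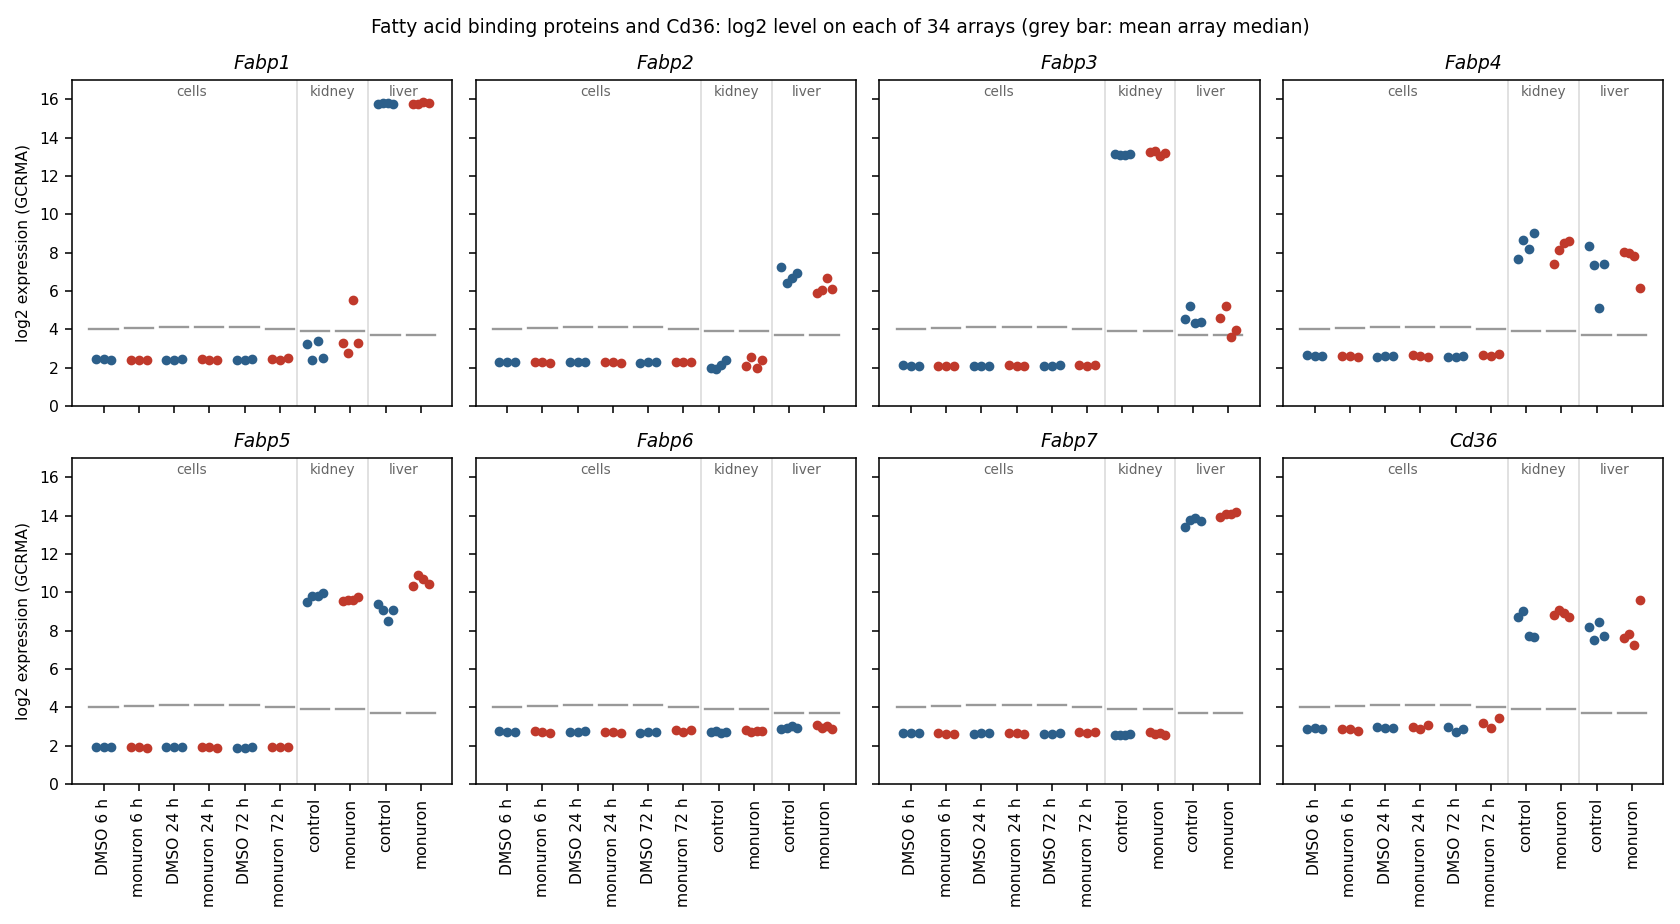
Log2 expression (vertical axis) of each gene on each array, by group (horizontal axis: cells by time, then kidney, then liver). Each point is 1 array, red for monuron and blue for DMSO or control, and the grey bar is the mean array median of the group. In the cells every point lies below the bar, and in liver the red Fabp5 points lie above the blue ones.

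Fabp1, the bulk fatty acid carrier of hepatocytes, was at 15.77, 15.83, 15.80 and 15.76 in the 4 control livers and at 3.21, 2.40, 3.38 and 2.52 in the 4 control kidneys, where it was below the median on each array. Since the kidney gives only a bound, the liver level was at least 3752-fold higher, with the kidney arrays set to their own medians. Fabp7, the brain-type carrier, gave the same picture in these rats. It was at 13.41, 13.76, 13.86 and 13.70 in control liver and at 2.54 to 2.61 in control kidney, at least 869-fold higher in liver. Fabp2, the intestinal carrier, was at 7.26, 6.44, 6.67 and 6.96 in control liver and at 1.92 to 2.39 in control kidney, at least 7.54-fold higher in liver. For these 3 genes the organs did not overlap, as for 72.5% of all genes tested in this comparison. They entered the fit of both organs through the liver arrays alone, so no test of the organs is read from them.

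Fabp3, the heart-type carrier, ran the other way. It was at 13.17, 13.10, 13.09 and 13.16 in control kidney and at 4.56, 5.22, 4.34 and 4.39 in control liver, a 362-fold higher level in kidney (log2 difference 8.50, SE 0.26, adjusted p = 1.03e-14). The SEs and adjusted p-values throughout are those of limma, adjusted by the Benjamini-Hochberg method over all genes tested, with 0.05 as the threshold. By the design text's count of rats, kidney and liver arrays share animals, while the fit of both organs takes the arrays as independent. Fabp5, the epidermal carrier, was at 9.52, 9.79, 9.79 and 9.96 in control kidney and at 9.38, 9.06, 8.51 and 9.10 in control liver. The organs did not overlap for it, and the level was 1.68-fold higher in kidney (log2 difference 0.75, SE 0.16, adjusted p = 4.07e-04). Fabp4, the adipocyte carrier, was at 7.67, 8.68, 8.17 and 9.02 in control kidney and at 8.36, 7.34, 5.12 and 7.42 in control liver. These overlap, and the difference of 1.32 (SE 0.56, adjusted p = 0.0425) rests on single arrays: it missed the threshold in 12 of 23 alternative fits, with an adjusted p of up to 0.181 without control liver replicate 3, where the difference was 0.68. Cd36 did not pass (log2 difference 0.31, 95% interval -0.57 to 1.19, adjusted p = 0.507), with 8.73, 9.05, 7.72 and 7.65 in control kidney against 8.20, 7.52, 8.47 and 7.72 in control liver. Of the 4 genes measured in both organs, Fabp3, Fabp4, Fabp5 and Cd36, 3 were called, each higher in kidney. Of all 10114 genes in the same comparison 76.7% were called, 44.8% higher in kidney and 31.9% higher in liver. The median of all genes in this comparison was 0.16, and -0.06 when each array was centred on its median, which leaves the directions of the 3 called genes as given.

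The markers of cell types in which these genes are known were examined beside these levels. Of 7 adipocyte markers on the array, 2 to 3 were above the median in liver and 1 to 2 in kidney. The adipokines Adipoq and Lep were below it on all tissue arrays. Cidec, a lipid droplet protein, was above it on all arrays of both organs, and Cfd, the adipokine adipsin, on all liver arrays. Endothelial markers were above the median for 8 of 9 genes in both organs, with a mean log2 level of 7.80 to 8.48 in kidney and 6.62 to 6.94 in liver. Macrophage and Kupffer cell markers were above it for 8 of 8 in liver, with a mean of 9.00 to 9.47. In kidney 4 of 8 were above it, with a mean of 4.24 to 4.45. Enterocyte markers were above it for 2 to 3 of 6 in either organ, striated muscle markers for 0 of 9, and glial markers for 2 of 6 in kidney and 1 to 2 of 6 in liver. Which cells carry each of the 8 transcripts was not tested. In whole organs, fewer cells of a type and less RNA per cell cannot be told apart.

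The sequences upstream of the 3 genes with a liver level and of the 1 with a kidney level are shown because these 4 genes split the organs most widely. They are the 250 bases before the RefSeq start of each gene in build GRCr8, printed in the direction of the gene, and 6 of the 8 genes had such an entry. Capitals mark matches to motifs searched on both strands: AGGTCA, the half-site of nuclear receptors, AGTTCA, a variant of it, the direct repeats of either half-site with 1 base (N) between the copies, which overlap the half-sites, and TATAAA, the TATA box. Fabp1 (chr4:104749090-104749339, plus strand), Fabp2 (chr2:213724379-213724628, plus strand), Fabp7 (chr20:37669356-37669605, plus strand) and Fabp3 (chr5:147935875-147936124, plus strand) read as follows.
Fabp1: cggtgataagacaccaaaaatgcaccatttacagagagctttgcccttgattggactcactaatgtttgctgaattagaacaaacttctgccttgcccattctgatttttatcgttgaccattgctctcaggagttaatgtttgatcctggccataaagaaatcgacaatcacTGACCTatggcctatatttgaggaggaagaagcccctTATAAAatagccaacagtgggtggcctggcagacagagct
Fabp2: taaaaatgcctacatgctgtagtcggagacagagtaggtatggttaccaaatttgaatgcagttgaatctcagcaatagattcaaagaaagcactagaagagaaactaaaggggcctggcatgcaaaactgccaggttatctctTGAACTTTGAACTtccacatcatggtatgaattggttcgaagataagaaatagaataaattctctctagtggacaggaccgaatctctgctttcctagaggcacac
Fabp7: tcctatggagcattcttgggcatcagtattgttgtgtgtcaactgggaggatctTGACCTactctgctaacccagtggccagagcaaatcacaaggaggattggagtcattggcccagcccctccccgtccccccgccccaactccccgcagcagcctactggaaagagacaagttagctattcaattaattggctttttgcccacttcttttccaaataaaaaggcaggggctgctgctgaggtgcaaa
Fabp3: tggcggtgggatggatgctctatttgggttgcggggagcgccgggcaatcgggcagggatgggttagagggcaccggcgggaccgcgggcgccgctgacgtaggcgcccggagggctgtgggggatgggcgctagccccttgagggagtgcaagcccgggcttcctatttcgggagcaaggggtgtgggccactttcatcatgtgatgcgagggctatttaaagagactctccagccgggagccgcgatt
In Fabp1 the half-site match begins 77 bases before the start, on the other strand, and the TATA match 40 bases before it. In Fabp2 the direct repeat of AGTTCA begins 106 bases before the start, on the other strand. In Fabp7 the half-site match begins 196 bases before the start, on the other strand, and the Fabp3 window holds none of these letters. Of 33469 RefSeq promoter windows of the same length, 14.06% hold AGGTCA, 12.22% hold AGTTCA, 12.93% hold TATAAA, 0.05079% hold the direct repeat of AGGTCA and 0.01195%, or 4 windows, hold that of AGTTCA. The matches describe letters only.

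In liver, Fabp5 was the gene of this set that changed with monuron. It was at 10.34, 10.90, 10.72 and 10.45 in the treated livers and at 9.38, 9.06, 8.51 and 9.10 in the controls. All 4 treated arrays were above all 4 controls, with 0.96 between the lowest treated and the highest control array. Fabp5 rose 3.01-fold (log2 difference 1.59, SE 0.19, 95% interval 1.16 to 2.02, adjusted p = 0.0087), the 11th smallest p among 9361 genes. The difference was 1.42 to 1.71 over 15 alternative fits and passed in each, with an adjusted p of 0.0086 to 0.0493. Of the 7 genes tested, 1 was called, higher, beside 3.12% of all genes tested in liver that were called and 1.10% that were called higher.

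Fabp7 was the other gene whose liver groups stood apart. It was at 13.94, 14.08, 14.06 and 14.20 after monuron and at 13.41, 13.76, 13.86 and 13.70 in the controls, so the lowest treated array exceeded the highest control by 0.08. Its log2 difference of 0.39 (SE 0.10, 95% interval 0.17 to 0.61) did not pass, with an adjusted p of 0.0670 in limma. Without control liver replicate 3 it passed, at 0.45 and an adjusted p of 0.0414. Groups that do not overlap with the treated side higher were found for 4.12% of all genes tested in liver.

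Fabp2 had lower values after monuron, without passing. It was at 5.90, 6.06, 6.69 and 6.12 in treated and 7.26, 6.44, 6.67 and 6.96 in control liver, where 3 of the 4 treated arrays lay below all controls and treated replicate 3 lay among them. The log2 difference was -0.64 (SE 0.23, 95% interval -1.15 to -0.13, adjusted p = 0.138 in limma).

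The remaining liver genes overlapped between treated and control arrays. Fabp1 was at 15.77, 15.77, 15.85 and 15.82 after monuron, a difference of 0.01 with a 95% interval of -0.09 to 0.11. The interval is the narrowest of the 7, and on every liver array the probe set lay at or above the 99.9th percentile of the array, near the top of its range. Whether the signal was saturated there, so that a rise would be missed, was not tested. Fabp3 was at 4.56, 5.24, 3.60 and 3.94 after monuron, close to the array median, with a difference of -0.29 (95% interval -1.08 to 0.50). Fabp4 and Cd36 varied widely between arrays of a group. Fabp4 was at 8.06, 8.002, 7.83 and 6.16 after monuron, a difference of 0.45 with a 95% interval of -1.06 to 1.96, which spans differences of either sign. Cd36 was at 7.62, 7.85, 7.24 and 9.58, a difference of 0.10 (95% interval -0.94 to 1.13), with treated replicate 4 above every control and a difference of -0.41 without it. On the probe set shared with Cd36l1 the treated livers were at 8.52, 8.81, 9.06 and 10.16 and the controls at 9.64, 8.89, 9.88 and 9.37, a difference of -0.31 (95% interval -1.08 to 0.47, adjusted p = 0.622). Treated replicate 4 was again the highest array, and the 2 probe sets gave differences of opposite sign, neither past the threshold.

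**Figure D2:**
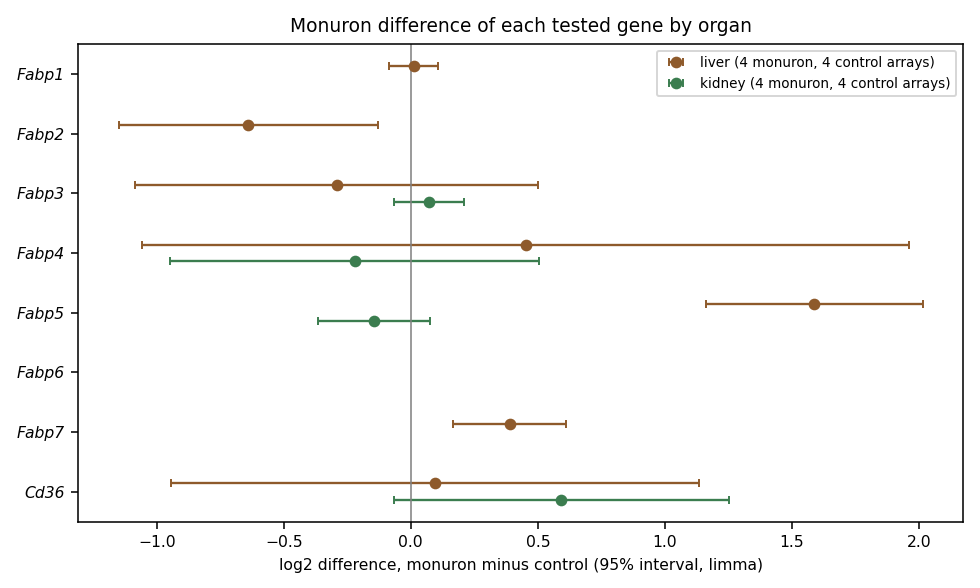
Log2 difference, monuron minus control (horizontal axis), of each gene tested, with its 95% interval from limma, in liver (brown) and kidney (green), each from 4 treated and 4 control arrays. The Fabp5 interval in liver (1.16 to 2.02) lies apart from its interval in kidney (-0.37 to 0.08), and Fabp4 and Cd36 have wide intervals in both organs.

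The markers of cell types are given for the same livers. Hepatocyte markers averaged 15.17 to 15.26 in the treated and 15.06 to 15.26 in the control livers. Macrophage and Kupffer cell markers, of interest for Fabp5 and Cd36, averaged 9.11, 9.44, 9.19 and 9.47 in treated and 9.00, 9.04, 9.21 and 9.13 in control liver, with 8 of 8 above the array median on each array. Clec4f, a Kupffer cell lectin, was at 10.76 to 11.16 after monuron and 10.91 to 11.06 in the controls. None of the 8 macrophage markers was called in liver by limma, 2 of them had an unadjusted p below 0.05, and their median difference was 0.19 against -0.07 for all genes. Their part in the Fabp5 difference was not tested. Of 5 proximal tubule markers tested in liver 2 were called higher, the water channel Aqp1 and the anion carrier Slc22a8, with log2 differences of 2.10 and 0.62 (adjusted p = 0.0228 for both in limma). The calls were lost in 4 and 5 of the 8 fits that left out 1 array, that of Slc22a8 also with the replicate number as a block. The mean over the 10 proximal tubule markers was 5.24 to 5.5004 in the treated and 4.96 to 5.25 in the control livers, and their part was not tested either.

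In kidney none of the 4 genes tested was called, and none had an unadjusted p below 0.05 in limma, beside 10.2% of all 9542 genes called. Fabp5 was at 9.52, 9.59, 9.62 and 9.75 after monuron, within the range of the controls, with a difference of -0.14 (95% interval -0.37 to 0.08, adjusted p = 0.356). Fabp3 was at 13.27, 13.30, 13.06 and 13.18, a difference of 0.07 (95% interval -0.07 to 0.21, adjusted p = 0.465). Fabp4 was at 7.41, 8.13, 8.49 and 8.62, a difference of -0.22 (95% interval -0.95 to 0.50, adjusted p = 0.689).

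Of the 4 genes tested in kidney Cd36 had the largest difference, 0.59 (95% interval -0.07 to 1.25, adjusted p = 0.210), without passing. The treated kidneys were at 8.83, 9.08, 8.90 and 8.70, close together, and control replicates 1 and 2, at 8.73 and 9.05, lay within that range, while control replicates 3 and 4 were lower at 7.72 and 7.65. The shared probe set showed the same 2 low controls, at 9.51 and 9.45 against 10.46 and 10.42, with 10.33, 10.26, 10.06 and 9.92 after monuron and a difference of 0.18 (95% interval -0.35 to 0.72, adjusted p = 0.646).

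Fabp1 was above the median on 1 kidney array, monuron replicate 3, at 5.53, and at 3.31, 2.75 and 3.30 on the other treated kidneys, so it was not tested in kidney. On that array the mean of the 10 hepatocyte markers was also the highest of the kidney arrays, at 5.79 with 8 of 10 above the median, against 3.44 to 4.91 on the other kidney arrays. The part of liver RNA in that value was not tested. Fabp2 (1.99 to 2.56 after monuron) and Fabp7 (2.56 to 2.70) were below the median on every kidney array.

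The difference between the organs in their response was tested in a joint fit of the 16 tissue arrays. By the design text's count of rats, kidney and liver arrays share animals. The fit takes the arrays as independent, so its SEs and p-values leave this sharing out. For Fabp5 the kidney difference minus the liver difference was -1.73 (SE 0.22, 95% interval -2.21 to -1.26, adjusted p = 6.75e-04), and it passed in all 23 alternative fits, at -1.86 to -1.57. The other 3 genes measured in both organs did not pass. Fabp3 had 0.36 (95% interval -0.42 to 1.15), Cd36 had 0.50 (95% interval -0.74 to 1.74) and Fabp4 -0.67 (95% interval -2.36 to 1.02). The 1 called gene of these 4 stands beside 2.68% of all genes called in this comparison.

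Fabp5 lies on chromosome 2 in a run of 5 neighbouring protein-coding genes of the lipid binding family, in the order Fabp12, Fabp4, Fabp9, Pmp2 and Fabp5, with no other protein-coding gene between them in the RefSeq annotation of GRCr8. Fabp12, an intracellular lipid binding protein found mainly in testis and retina, was at 10.01, 10.05, 10.26 and 9.86 in treated and 9.91, 9.55, 9.72 and 9.72 in control liver, a difference of 0.32 (SE 0.11, adjusted p = 0.131), and below the median on all kidney arrays at 2.92 to 3.29. Fabp9, the testis lipid binding protein, and Pmp2, the myelin carrier, were below the median on all 34 arrays. Among the 5 neighbours, then, the 3 measured in liver had differences of 0.32, 0.45 and 1.59, of which the last, Fabp5, passed.

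**Figure D3:**
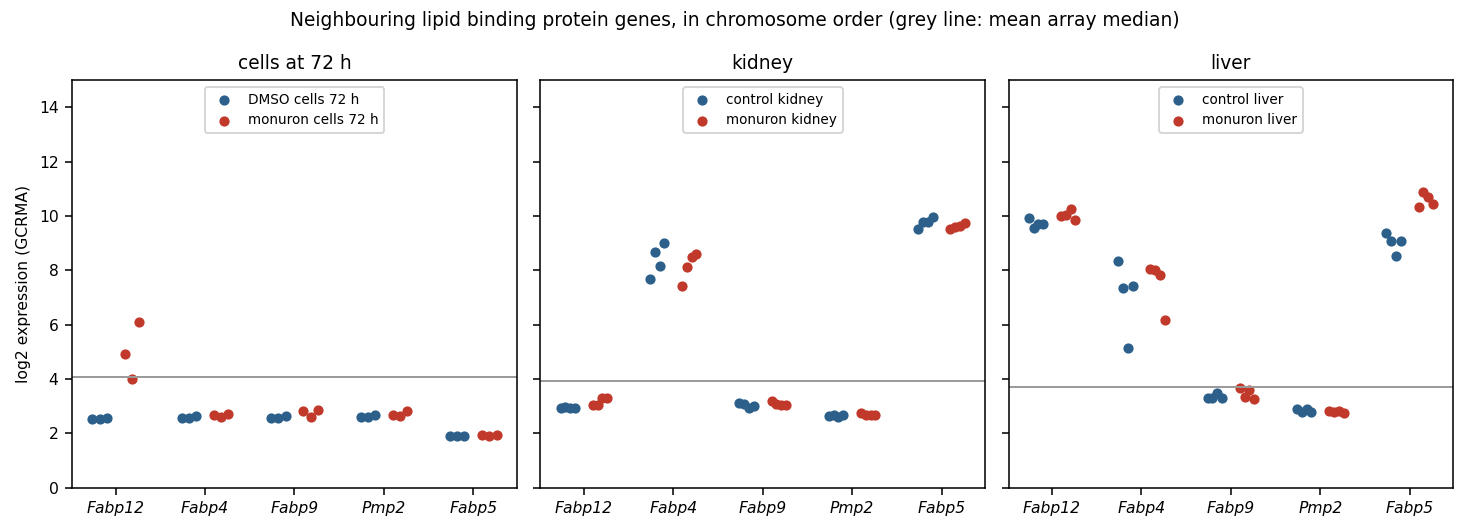
Log2 expression (vertical axis) of the 5 neighbouring genes in chromosome order (horizontal axis) in cells at 72 h, kidney and liver. Each point is 1 array, red for monuron and blue for DMSO or control, and the grey line is the mean array median. Fabp12 is at 9.55 to 10.26 in liver and 2.92 to 3.29 in kidney, and in the cells at 72 h its monuron arrays (3.99 to 6.11) lie above the DMSO arrays (2.51 to 2.57).

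In the NRK-52E cells none of the 8 genes entered the tests, which covered 9042 genes with 6.31% called at 6 h, 13.6% at 24 h and 61.6% at 72 h, because none was above the array median on any array. The same holds for the change of the monuron difference from 6 to 24 h (1.22% of all genes called) and from 24 to 72 h (37.9%), and for the DMSO cells from 6 to 24 h (53.1%) and from 24 to 72 h (27.9%). Over the 18 arrays Fabp1 lay at 2.38 to 2.52, Fabp2 at 2.26 to 2.32, Fabp3 at 2.08 to 2.15, Fabp4 at 2.55 to 2.71, Fabp5 at 1.88 to 1.95, Fabp6 at 2.63 to 2.83 and Fabp7 at 2.58 to 2.73. Cd36 varied more, from 2.69 to 3.42, with 3.17, 2.93 and 3.42 on the monuron arrays at 72 h and 2.97, 2.69 and 2.88 on the DMSO arrays. The value distributions of cells and organs differ, with a mean distance between quantiles of 0.347 for kidney and 0.484 for liver, so levels are set side by side here with no test. Kidney and liver, which were tested against each other, also differ, by 0.149, against 0.027 within kidney and 0.037 within liver. Centring and quantile normalization were among the alternatives of that test. The order of the levels, median over the arrays of a type, was liver, kidney, cells for Fabp1 (15.79, 3.26, 2.41), where kidney (2.40 to 5.53) and cells (2.38 to 2.52) overlap. For Fabp7 it was liver (13.90), then kidney and cells (2.58 and 2.64), which overlap below the array median. For Fabp3 it was kidney, liver, cells (13.16, 4.48, 2.10), for Cd36 kidney, liver, cells (8.78, 7.78, 2.90) with overlapping organs, and for Fabp4 kidney, liver, cells (8.33, 7.63, 2.60) with overlapping organs. For Fabp2 liver stood at 6.55, above cells and kidney at 2.29 and 2.09, which overlap below the array median. For Fabp5 the organs overlap when treated and control arrays are pooled, as these medians do (9.86 in liver, 9.68 in kidney), both above the cells at 1.91. Among the controls alone they did not overlap, with kidney higher, as given above.

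Fabp12 was the 1 gene of the neighbouring run that came above the array median in the cells. At 72 h it was at 4.91, 3.99 and 6.11 on the monuron arrays and at 2.51, 2.52 and 2.57 on the DMSO arrays, above the median on monuron replicates 1 and 3. Groups that do not overlap with the monuron side higher were found for 28.6% of the genes tested at 72 h. It failed the rule for testing, which asks for 3 arrays, so it was not in the main fit. Without the filter its log2 difference was 2.47. No p-value is read from that fit, which shares its spread with cell groups at background. The SD was 1.06 on the monuron arrays at 72 h and 0.03 on the DMSO arrays. With values below the array median set to that median the difference was 0.90. The DMSO arrays lie below the median, so the size of the difference is not measured.

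The genes around the carriers were taken from lists of uptake, PPAR signalling and lipid storage. In liver, PPAR target genes, which encode much of fatty acid oxidation, had 8 members lower, 0 higher and 20 not called, of 28 tested, beside 2.02% of all genes called lower. The median difference of the 28 was -0.26, against -0.07 for all genes. Crat, the carnitine acetyltransferase, fell by 1.55 on the log2 scale (adjusted p = 0.0147) and Vnn1, the pantetheinase vanin, fell by 1.35 (adjusted p = 0.0228). Slc25a20, the carnitine-acylcarnitine carrier, fell by 0.49 (adjusted p = 0.0249) and Decr1, a reductase for unsaturated fatty acids, fell by 0.61 (adjusted p = 0.0251). The number lower depends on single arrays: it was 0 without monuron liver replicate 1, 1 without control liver replicate 1 or 2, 3 without monuron liver replicate 3, 4 without monuron liver replicate 2 or control liver replicate 4, and 0 with the replicate number as a block. It was 3 without the filter or without the trend, and 5 with the mean of all probe sets of a gene.

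None of the other lists had a called member in liver by limma. Of the genes for uptake and activation of fatty acids 0 of 14 were called, with 1 higher and 6 lower at an unadjusted p below 0.05, and Slc27a2, the very long chain acyl-CoA synthetase of liver and kidney, had -0.18 (adjusted p = 0.0859). Of the PPAR receptors and their partners 0 of 12 were called (1 higher and 2 lower unadjusted), and of the lipid droplet and triglyceride genes 0 of 21 (3 higher and 5 lower unadjusted). Among the relatives of Cd36, Scarb1, the HDL receptor, had -0.22 (adjusted p = 0.168), and Scarb2, a lysosomal membrane protein, had -0.24 (adjusted p = 0.446), 0 of 3 called with 1 lower unadjusted.

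In kidney, PPAR targets had 3 members higher and 7 lower of 28 tested, with 3.87% and 6.34% of all genes called in these directions. Vnn1 fell by 0.89 (adjusted p = 0.0037), Cpt1a, the entry enzyme of mitochondrial oxidation, fell by 0.38 (adjusted p = 0.0059) and Plin2, a lipid droplet coat protein, fell by 0.60 (adjusted p = 0.0080). Hsd17b4, the peroxisomal bifunctional enzyme, rose by 0.57 (adjusted p = 0.0048). With any single array left out, 1 was higher and 5 to 7 were lower, and with the replicate number as a block 1 was higher and 4 were lower. Acbd4, an acyl-CoA binding protein, rose by 0.44 (adjusted p = 0.0239), 1 of 14 for uptake and activation, and Cidec by 0.98 (adjusted p = 0.0385) and Mgll by 0.60 (adjusted p = 0.0439), 2 of 15 for droplets and triglyceride. Each of these 3 calls was lost in 6 of the 8 fits that left out 1 array. None of 3 Cd36 relatives and none of 8 PPAR receptors and partners was called by limma, and none had an unadjusted p below 0.05. Some cell type markers were called in the same kidneys. The 10 proximal tubule markers averaged 13.78 to 13.92 in the treated and 13.55 to 13.64 in the control kidneys, and 3 of them were called higher, among them Cubn, the endocytic receptor cubilin, by 1.01 (adjusted p = 2.52e-04). The 6 distal nephron markers averaged 12.55 to 12.83 in the treated and 12.38 to 12.49 in the control kidneys, with 1 called, Kl, higher by 1.29 (adjusted p = 0.0329), lost in 5 of the 8 fits that left out 1 array and without the filter. Of 8 endothelial markers tested 1 was called, Vwf, higher by 1.04 (adjusted p = 0.0048). The median difference of the 8 was -0.20, against -0.08 for all genes. Of 5 hepatocyte markers tested 1 was called, Apoh, higher by 2.21 (adjusted p = 0.0059), and their median difference was 1.25. Of the enterocyte markers 2 of 2 tested were called higher, with a median log2 difference of 0.60. The part of these in the list counts was not tested.

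**Figure D4:**
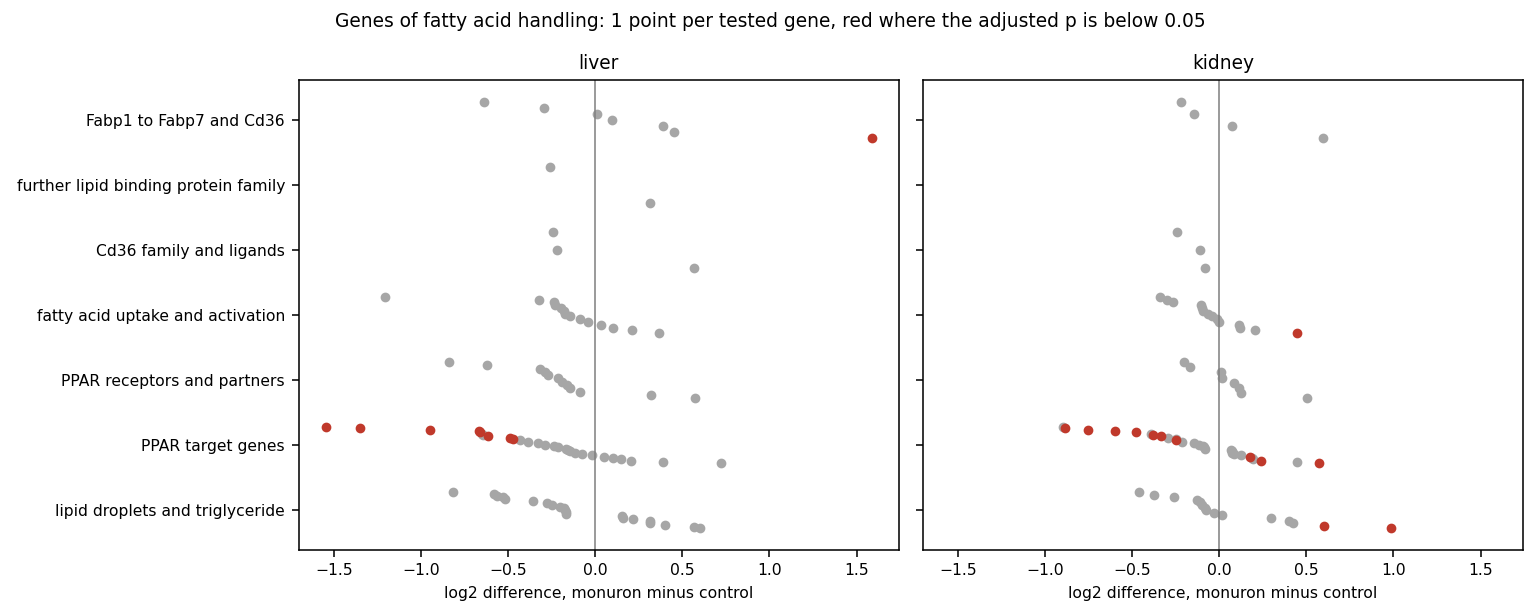
Log2 difference, monuron minus control (horizontal axis), of each tested gene of the set and of 6 lists of fatty acid handling (vertical axis), in liver and kidney, 1 point per gene. Red points passed the adjusted threshold: Fabp5 at 1.59 in the set and 8 PPAR targets below 0 in liver, and 3 PPAR targets above and 7 below 0 in kidney.

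The cells, where the 8 carriers were at background, still carried other genes of fatty acid handling. At 72 h the PPAR targets had 3 members higher and 14 lower of 21 tested, with 30.7% and 30.9% of all genes called in these directions, and a median of -0.49 against 0.01 for all genes. Acadm, the medium-chain dehydrogenase, fell by 0.93 (adjusted p = 1.63e-05), and Acads, its short-chain counterpart, fell by 0.86 (adjusted p = 3.83e-05). Of the uptake and activation genes 6 were higher and 2 lower of 12 tested: Acbd3 rose by 0.86 (adjusted p = 3.92e-06), Acsl5 and Acsl1, acyl-CoA synthetases, rose by 1.23 and 1.08 (adjusted p = 4.02e-06 and 1.12e-05), and Slc27a1, a fatty acid transport protein, fell by 1.27 (adjusted p = 1.56e-05). Both measured relatives of Cd36 rose, Scarb2 by 1.29 (adjusted p = 1.19e-04) and Scarb1 by 1.55 (adjusted p = 0.0048), while Cav1, the coat protein of caveolae, fell by 0.75 (adjusted p = 3.31e-04). The Scarb1 call was lost with only the arrays of the times compared, and the Cav1 call with the mean of all probe sets of a gene. Markers of other cell types also passed at 72 h. The muscle genes Acta1 and Tnni3 were higher by 3.82 and 1.67 (adjusted p = 8.47e-05 and 4.61e-04), and the macrophage markers Cd68 and Cd5l by 2.30 and 0.59 (adjusted p = 5.71e-06 and 0.0264), the last lost in 5 of 19 fits with arrays left out. The endothelial receptor Tek fell by 1.95 (adjusted p = 0.0022), and both Tek and Cd5l were lost with values below the array median set to that median. By the probe set of highest mean over all arrays, 1 of 8 macrophage markers was above the array median on the monuron arrays at 72 h. On all other cell arrays 0 were. Of 9 muscle markers 2 were above it on the monuron arrays at 72 h, 1 to 2 on the DMSO arrays and 1 at earlier times. A marker that entered the test through the group where it is high gains no support from its p-value. The part of these cell type markers in the list counts was not tested. At 24 h Pdk4, a kinase that restrains pyruvate oxidation, rose by 0.98 (adjusted p = 0.0015) and Crabp2, the retinoic acid carrier of the same protein family, by 0.89 (adjusted p = 0.0245), lost in 4 of 19 fits with arrays left out. At 6 h Acbd4 rose by 0.64 (adjusted p = 0.0187) and Eci2, an isomerase of oxidation, fell by 0.56 (adjusted p = 0.0154), lost in 5 and 3 of 19 such fits.

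The genes most like each carrier over the 16 tissue arrays mostly follow the split between the organs, which all these arrays share. Fabp1 was closest to Fgg (r = 0.999), Apoa2 and Itih3, Fabp7 to C8a (r = 1.000), Agmo and C4bpa, and Fabp2 to Cxcl11 (r = 0.995), Cldn14 and Stard10. Fabp3 was closest to Renbp (r = 0.998), Clrn3 and Dync2li1. Fabp5, Fabp4 and Cd36 had lower values: Fabp5 was closest to Atxn1l (r = 0.838), Fabp4 to Sppl3 (r = 0.837) and Cd36 to Pdgfc (r = 0.816). Within the 8 liver arrays, a choice made after the data were seen, Fabp5 was closest to S100a11 (r = 0.987), Arhgap26 (r = 0.980) and Abca8a (r = 0.969), over 9361 genes. These are descriptions over few arrays, with the treatment split included.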

How the data were processed

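RNA was measured on 34 Affymetrix rat arrays. The deposited values are log2 expression per probe set, made by the authors with GCRMA per the submitters' processing notes. GCRMA corrects background, equalises the arrays' distributions and summarises the probes of a set, so low values crowd near a floor. Its version was not given in the sources used here. Of 31099 probe sets 57 controls were left out, 20826 had 1 gene symbol, 436 several and 9780 none in the platform annotation. Each gene was represented by its probe set of highest mean over the arrays of a fit, and tested if above its array's median on no fewer arrays than the smallest group holds. limma 3.58.1 (R 4.3.3; lmFit, eBayes with trend, two-sided) fitted the 18 cell arrays, the 8 kidney, the 8 liver and the 16 tissue arrays, with Benjamini-Hochberg adjustment and a threshold of 0.05, and was tested on simulated data. Levels of cells and organs were only described.

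The 8 genes, the lists and the rules were chosen with earlier results of these data known. Named were every gene of the set, up to 4 called genes with the smallest adjusted p per list and comparison, and the 3 genes of highest Pearson r; the text gives part of them. Replicate numbers were checked as pairs by the correlation of deviations from the group means: same-numbered monuron and DMSO arrays correlated at 0.198 to 0.491 at 6 h and 0.167 to 0.317 at 72 h, but at -0.116 to 0.128 at 24 h, -0.198 to 0.020 in kidney and -0.149 to 0.045 in liver. No gene of the set was tested in the cells, so the pairing there touches none of its results. The cell p-values given for list and marker genes come from the main fit, which leaves the pairing out. Alternatives were another probe set summary, no filter, centring, quantile normalization, limiting to the array median, no trend, the replicate block and leaving out arrays. The p-values set each difference against the spread between replicate arrays, and the number of arrays limits precision.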

Additional observations from a re-analysis of the deposited data

Results flagged for a closer look

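The Fabp4 level in monuron liver replicate 4 was 6.16, the lowest of its group, and its gap to the next array took 0.880 of the range of the 4 arrays (8.06, 8.002, 7.83 and 6.16). It was 1 array set apart in this way among 23 groups of 4 checked, where chance sets apart about 1 group in 20. The monuron difference of Fabp5 differed between the organs by -1.73 (kidney minus liver, log2; adjusted p = 6.75e-04 for the interaction in limma), with 4 of 4 treated livers above every control liver and 0 of 4 treated kidneys above every control kidney.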

How the results depend on the processing

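Of 487 values of single genes of the set under alternatives, 474 kept their direction, where called, and their side of the threshold, and none of the called values reversed; these include the values of Fabp1, Fabp2 and Fabp7 between organs, which entered that fit through the liver arrays alone. The exceptions were Fabp7 in liver without control liver replicate 3 and Fabp4 between the control organs in 12 fits (adjusted p from 0.0504 to 0.181), among them centring (0.0849), quantile normalization (0.0700), no filter (0.0541), no trend (0.0510) and the mean of all probe sets of a gene (0.0505). The count of called genes of the set in liver was 1 to 2 over fits leaving out 1 array, and in the cells at 72 h it was 3 without the filter (Cd36 0.33, Fabp6 0.09 and Fabp5 0.03, at adjusted p = 0.0132, 0.0421 and 0.0402 in limma), each below the array median on every array. With the replicate block the number of all genes called went from 292 to 40 in liver and from 974 to 350 in kidney. Fabp5 in liver stayed past the threshold at an adjusted p of 0.0493 in that limma fit, and Fabp5 between the organs at 0.0021. Fabp4 between the control organs moved to 0.0585. The block changed no other call of the set. Within kidney and within liver, the monuron and control numbers do not pair by the check. Between the organs the correlations were low, but the highest were between same-numbered arrays. Whether a shared number marks a shared rat is not said in the labels. Same-numbered kidney and liver arrays correlated at 0.021 to 0.142 in the controls, where unlike numbers reached 0.029. After monuron they correlated at 0.059 to 0.158, above every unlike number (at most 0.030).

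All genes called in liver, 292, became 95 without the filter, 191 with centring, 117 without the trend and 31 to 507 with 1 array left out (31 without monuron replicate 1, 507 without control replicate 3); in kidney the range was 347 to 918. In the fit of both organs the 271 genes whose difference differed became 143 to 502. With only the arrays of the times compared, the cells gave 1375 called genes at 6 h, 3217 at 24 h and 3706 at 72 h, against 571, 1227 and 5572, and 103 to 1602, 460 to 2488 and 4796 to 5964 with arrays left out. The list counts under these alternatives and the shared Cd36 probe set were chosen after seeing the data. With 4 arrays a group, the intervals for Fabp4 and Cd36 in liver were over 2 log2 units wide. The cause of these changes was not tested.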
